A study of Canis lupus familiaris with 55 samples.

Results

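XY gonads of the canine XX DSD model pedigree were compared with XY gonads of control breeding at gestational days 37 to 39 (d37-39). XX DSD is a disorder of sex development in which dogs with 2 X chromosomes and no *SRY* form testis tissue. The members of the comparison were chosen by sex chromosomes, pedigree and age, with no expression value, and numbered 11 of the 55 RNA-seq libraries of the series. The 5 XY littermates were C3516 at d37 and C3626, C3627, C3637 and C3638 at d39. They were *SRY*-positive sibs of XX embryos at risk, came from 4 litters of an American cocker spaniel and beagle cross, and were all homozygous for a guanine insertion on chromosome 9 by the genotypes of the study. The 6 XY controls were A1096, A1099 and A1100 at d37 and A1091, A1094 and A1095 at d39. They came from wild-type beagle parents, with 1 litter at each day. No embryo was treated, and each library held the RNA of the gonad pair of 1 embryo. The question of the comparison is which expression differences go with the pedigree in embryos that form testes, where they cannot be read as differences between a testis and an ovary.

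In the mammalian embryo the gonad starts as a bipotential primordium. In XY embryos *SRY* switches on *SOX9* in the supporting cells, which become Sertoli cells, close into cords and secrete anti-Müllerian hormone (AMH), the hormone that makes the Müllerian ducts regress. Fetal Leydig cells differentiate in the interstitium between the cords and make androgens from cholesterol by way of *STAR*, *CYP11A1* and *CYP17A1*. In XX embryos *RSPO1* and *WNT4* signal through beta-catenin and the supporting cells become pre-granulosa cells.

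Litters were nested in the groups, and pedigree, insertion genotype, litter and any processing of the 2 groups on separate occasions cannot be told apart here. The p-values measure the spread between these embryos, of which the controls represent 2 litters. Day was not balanced, with 1 of 5 littermates and 3 of 6 controls at d37. Fewer cells of a type and less RNA per cell cannot be told apart in whole gonads. Depth relative to the deepest library, estimated from the FPKM that 1 read adds, was 0.293 to 1 in the littermates (median 0.737) and 0.179 to 0.971 in the controls (median 0.581), and did not differ between them beyond the spread (exact permutation p = 0.554, two-sided). The estimates of A1096 and A1100 were ambiguous by 1.00 on the log2 scale. A pair of libraries stood apart from their groups. C3516 and A1095, both shallow (0.293 and 0.266), were each other's nearest library (r = 0.962 over 12755 loci), whereas the nearest library of each of the other 9 was in its own group. Markers of neighbouring organs were present in part. *PAX8* of the kidney tubule was at 1.35 to 7.08 FPKM in the littermates and 2.41 to 3.55 FPKM in the controls, and *ALB* of the liver at 0.624 to 15.7 FPKM in the littermates and 0.499 to 5.98 FPKM in the controls. *MYOG* of skeletal muscle was at most 0.353 FPKM in the littermates and 0.244 FPKM in the controls, and *PAX2* of the mesonephric duct was listed at 0 in all 11 libraries.

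Across the table of annotated genes, lower expression in the littermates was the prevailing change. Of 13933 genes tested, 391 were called lower (2.81%) and 38 higher (0.273%) at an adjusted p under 0.05 (limma, Benjamini-Hochberg), group means at least 2-fold apart and 4 FPKM or more in the higher group. The adjusted p alone passed for 1027 lower and 593 higher genes, and the median change over all genes tested was 0.01 on the log2(FPKM + 1) scale, which is used for every change below. Of the called genes, 162 lower and 16 higher ones had no overlap between the 5 littermates and the 6 controls. The share of such genes over all annotated genes was not counted, and a call itself favours genes whose groups lie apart. Over the 391 genes the median difference from the control mean was -0.68 in C3516 and -1.29 to -1.74 in the other littermates. Among the controls it was -0.52 in A1095 and -0.10 to 0.34 in the other 5. Without A1095 the counts were 571 lower and 58 higher genes, without C3516 461 and 66, without A1094 248 and 25, and with 1 value per litter 19 and 8.

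Most annotated genes carry only an identifier in that table, and names were therefore taken from the discovery table, an assembly guided by the annotation with 58781 loci. Of its 32331 loci tested, 197 were called lower (0.609%) and 55 higher (0.17%), and 1.29% passed the adjusted p alone in either direction. Of the loci with any gene name, 17 were called higher and 133 lower. Only 2 called higher loci had a symbol of their own, *TNFRSF1B* and *GALNT13*, against 80 called lower loci. Such a symbol is the only name of its locus, is shared with no other locus and is not an Ensembl-style identifier. These counts rested on the many short unnamed loci that share the adjustment. Without single libraries they ranged from 14 lower loci (without A1096) to 493 (without A1095) and from 11 higher loci (without C3627) to 140 (without C3516). Over the 11713 loci with a gene name of their own alone, 255 were called lower and 37 higher, and 171 to 399 and 27 to 58 when a library was left out. The adjusted p over these loci is therefore given beside that over all loci where they fall on different sides of 0.05. At an unadjusted p under 0.05, 1677 of them were lower (14.3%) and 1450 higher (12.4%). These 2 shares are the base for every list count at an unadjusted p given below. The groups did not overlap at 284 lower (2.42%) and 231 higher loci (1.97%). The summed FPKM of the discovery table ran from 793021 in C3516 to 2423800 in C3637, with 8.26% and 71.1% of it in unnamed loci, and the control A1099 had 66% there. Dividing by these sums moved the median of the own-name loci to -0.54, against 0.01 as deposited, and the lower share of the called loci to 64%, against 78.2%. Among own-name loci alone the lower share of calls became 42.9% with this division, against 87.7% as deposited. Only 25 loci of the whole discovery table were called with this division, against 252 as deposited. Both shares with the division thus rest on few loci, and no prevailing direction can be read from that of the own-name loci. In the annotated table the same division left the lower share at 91.4%, against 91.1%. Under this scaling alone small positive changes given below turn negative in sign, among them those of *SOX9*, *FGF9*, *KITLG*, *STAR*, *CYP11A1*, *CYP17A1*, *FDX1* and *SFRP2*, and relative to the median of -0.54 all 8 stay positive.

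*AMH* fell in the littermates, and *SOX9* did not differ measurably. *AMH* had 1569.7, 1053, 844, 1043 and 1887 FPKM in the littermates (in the order C3516, C3626, C3627, C3637 and C3638, used throughout), against 3195, 2513, 2419, 5684, 6269 and 2602 FPKM in the controls (A1096, A1099, A1100, A1091, A1094 and A1095). Every littermate was below every control, and C3516 and C3638 came nearest to them. The means were 1279 ± 433 FPKM and 3780.4 ± 1732 FPKM (SD, n = 5 and 6), a 2.95-fold lower level with a log2 change of -1.51 (SE 0.30, adjusted p = 0.0127 by limma, exact permutation p = 0.00216, the smallest that 462 assignments can give). With 1 value per litter the adjusted p of *AMH* was 0.101. *SOX9*, the Sertoli cell switch (chr9:8275049-8280390 of canFam3), had 80.6, 92.5, 85.9, 77.0 and 62.4 FPKM in the littermates, against 69.8, 69.0, 69.0, 66.2, 73.7 and 92.8 FPKM in the controls. The groups overlapped at *SOX9*, with the highest control, A1095, level with the highest littermate. Its change was 0.11 with a 95% interval of -0.14 to 0.37 (adjusted p = 0.51, exact permutation p = 0.346), which excludes the size of the *AMH* change.

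*SOX10* fell too, and *INHA* lay lower in value. *SOX10*, a SOXE relative of *SOX9* (chr10:26680432-26696275), had 5.99, 5.58, 1.52, 3.42 and 3.08 FPKM in the littermates, against 11.4, 9.70, 10.1, 11.9, 16.0 and 7.28 FPKM in the controls. It fell 2.82-fold with no overlap (log2 change -1.35, SE 0.27, adjusted p = 0.0432, exact permutation p = 0.00216), a call lost in 17 of 31 alternatives. *INHA*, which encodes the alpha subunit of the inhibins (chr37:26079419-26083619), had 219, 249, 224, 262 and 327 FPKM in the littermates, against 517, 453, 587, 513, 836 and 296 FPKM in the controls. Only the control A1095 reached into the littermates' range. The *INHA* change was -1.0 (SE 0.22) and missed the threshold over all loci (adjusted p = 0.0522), with 0.0135 over own-name loci and an exact permutation p of 0.00649.

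The rest of the Sertoli list stayed near its control level. Of 20 members tested, 2 were called lower and 0 higher, *AMH* in the annotated table (2.81% of its genes called lower) and *SOX10* in the discovery table (0.609%). The median was -0.11, beside 0.01 over all own-name loci. *DMRT1*, a transcription factor that maintains the testis fate, was at 18.5 ± 2.99 FPKM in the littermates and 20.2 ± 1.71 FPKM in the controls (SD, n = 5 and 6), with an interval of the change from -0.37 to 0.11. The changes of *FGF9*, a growth factor that sustains *SOX9* in mice, of *PTGDS*, the prostaglandin D synthase, and of *INHBB*, the inhibin beta B subunit, were 0.09, -0.15 and -0.15, and that of *CYP26B1*, which breaks down retinoic acid, was -0.38. None of these 4 passed by limma (adjusted p of 0.498 to 0.69). *KITLG*, the ligand of the germ cell receptor KIT, was at 51.7 ± 6.43 FPKM in the littermates and 36.7 ± 11.1 FPKM in the controls, a change of 0.52 that did not pass (adjusted p = 0.171). *SOX8* stood at or under 0.102 FPKM in the littermates and 0.199 FPKM in the controls and was not tested. The Sertoli list summed to 1815 to 3063 FPKM in the littermates and 1999 to 3828 FPKM in the controls (22 genes of the discovery table, which holds no locus of its own for *AMH*).

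**Figure D1:**
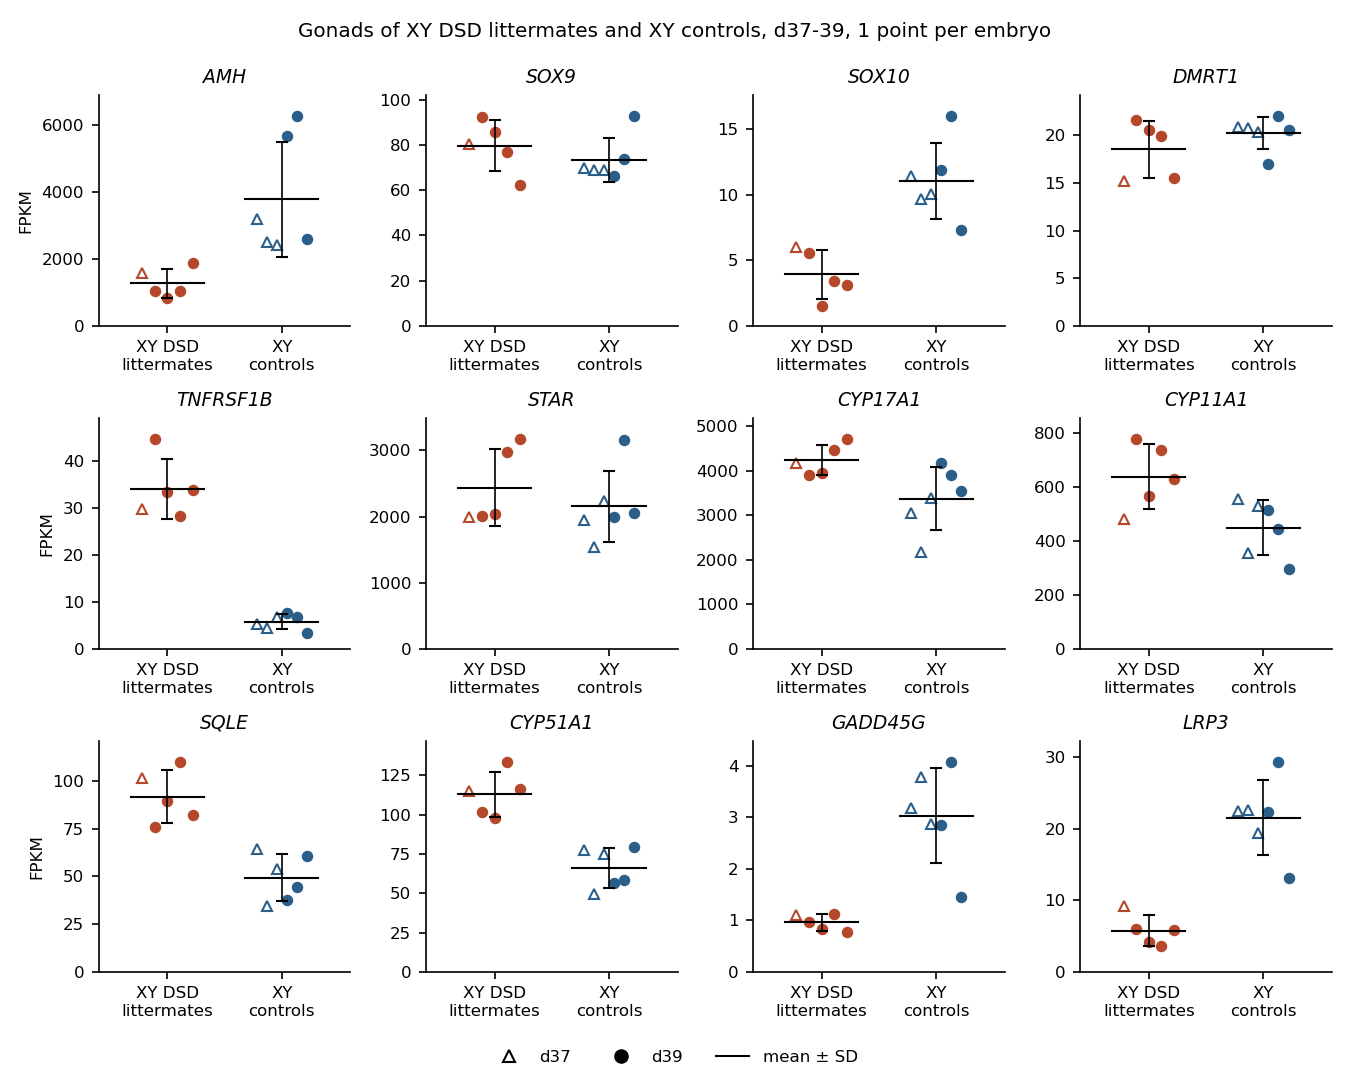
Expression of 12 genes by embryo, in FPKM on linear axes from 0, with XY littermates left and XY controls right in each panel. Triangles are d37 embryos, circles d39 embryos, and the line and bar give the group mean ± SD. The groups are apart at *AMH* (at most 1887 against at least 2419 FPKM) and at *TNFRSF1B* (at least 28.4 against at most 7.57 FPKM), and they overlap at *SOX9*, *DMRT1*, *STAR*, *CYP17A1* and *CYP11A1*.

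No tested androgen-making gene of Leydig cells passed as lower in the littermates. Of 12 tested members of the Leydig cell and steroidogenesis list 0 passed by limma, with 2 higher and 0 lower at an unadjusted p under 0.05 and a median of 0.20 (-0.37 with division by the summed FPKM). *STAR*, which moves cholesterol into mitochondria (chr16:27326036-27337819), had 1995, 2013, 2037, 2980.1 and 3168 FPKM in the littermates, against 1941, 1542, 2234, 1991, 3156 and 2055 FPKM in the controls. These ranges lay over each other, and the interval of the change was -0.33 to 0.70. *CYP17A1*, the enzyme that turns progestagens into androgens (chr28:15282085-15299121), averaged 4240.3 ± 342 FPKM in the littermates and 3369.8 ± 708 FPKM in the controls (change 0.36, adjusted p = 0.476, exact permutation p = 0.0303). *CYP11A1*, which cleaves the cholesterol side chain (chr30:37472208-37487340), averaged 639 ± 121 FPKM in the littermates and 450.1 ± 103 FPKM in the controls (change 0.52, adjusted p = 0.220, exact permutation p = 0.0281). *FDX1*, the electron carrier of *CYP11A1*, changed by 0.49 (adjusted p = 0.210), *LHCGR*, the luteinizing hormone receptor, by 0.27 (adjusted p = 0.381) and *RXFP2*, the receptor of the Leydig hormone INSL3, by 0.81 (adjusted p = 0.476). *NR5A1*, the nuclear receptor that drives most of these genes, was at 81.6 ± 7.47 FPKM in the littermates and 90.9 ± 15.3 FPKM in the controls (interval of the change -0.44 to 0.16). *FDXR* and *HSD17B3* of the list changed by -0.27 and -0.22 (adjusted p of 0.476 for both). They were added after their values were seen and were not followed in the alternatives. With *NR5A1* they were the 3 of the 12 tested members with a change under 0. The list summed to 8122 to 10426 FPKM in the littermates and 5342 to 9294 FPKM in the controls.

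Cholesterol synthesis was the only one of the 25 lists in which genes rose past the adjusted threshold over all loci. Of 22 members tested, 4 passed as higher and 0 as lower, beside 1.29% of all loci passing in either direction, and the median change was 0.32 (-0.27 with division by the summed FPKM, where that of all own-name loci was -0.54). With the adjustment over own-name loci 8 were higher and 2 lower. *SQLE*, the squalene epoxidase (chr13:22992617-23018216), had 102, 76.0, 89.7, 109.9 and 82.3 FPKM in the littermates, against 64.2, 34.6, 54.1, 37.7, 44.2 and 60.7 FPKM in the controls. *CYP51A1*, the lanosterol demethylase (chr14:17739443-17766960), had 115.1, 101.4, 97.8, 133 and 116 FPKM in the littermates, against 77.3, 49.3, 74.9, 56.7, 58.5 and 79.1 FPKM in the controls. All 5 littermates were above all 6 controls at both genes. *SQLE* rose 1.86-fold (log2 change 0.91, SE 0.17, adjusted p = 0.0413) and *CYP51A1* 1.71-fold (0.78, SE 0.14, adjusted p = 0.0377), each with an exact permutation p of 0.00216. *FDFT1*, the squalene synthase, rose 1.72-fold (adjusted p = 0.0489) without overlap. None of the 3 genes *SQLE*, *CYP51A1* and *FDFT1* reached the 2-fold of a call. Each of the 3 lost the adjusted p under 0.05 over all loci in 17 or 18 of 31 alternatives, with changes that stayed above 0 throughout. The list summed to 1511 to 1882 FPKM in the littermates and 1169 to 1610.5 FPKM in the controls.

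Transcription factors that build the gonad primordium were close to control level. *WT1* changed by -0.11 (interval -0.35 to 0.13) and *GATA4* by -0.11 (interval -0.38 to 0.15). Of 15 tested genes of the bipotential gonad list 0 passed by limma, with 3 lower and 1 higher at an unadjusted p under 0.05 and a median of -0.11. *GADD45G*, which in mice acts through the p38 kinase route to raise *Sry* (chr1:96744758-96746752), had 1.11, 0.974, 0.822, 1.13 and 0.766 FPKM in the littermates, against 3.18, 3.78, 2.87, 2.85, 4.07 and 1.45 FPKM in the controls. The groups did not overlap, and A1095 was the nearest control. Its means of 0.959 ± 0.164 and 3.03 ± 0.918 FPKM are 3.16-fold apart, with a log2 change of -1.01 (SE 0.24), an adjusted p of 0.064 over all loci and 0.00815 over own-name loci. *TCF3*, an E protein (chr20:57250855-57285483), had 18.9, 16.1, 12.8, 8.89 and 21.3 FPKM in the littermates, against 32, 35.6, 30.1, 32.4, 35.9 and 16.6 FPKM in the controls. A1095 again lay within the littermates' range, and the other 5 controls above it. The *TCF3* change of -0.94 had an adjusted p of 0.0805 over all loci and 0.023 over own-name loci, which was lost on leaving out any of C3627, C3637, A1096, A1099 or A1094 (up to 0.0635). *TCF21* and *CBX2* changed by -0.59 and -0.41, and neither passed (adjusted p of 0.164 and 0.199).

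Genes of the ovarian route were low in both groups. *RSPO1*, a secreted activator of WNT signalling, had 5.41, 6.19, 4.30, 3.63 and 4.0 FPKM in the littermates, against 7.91, 11, 5.70, 8.29, 9.64 and 3.44 FPKM in the controls. A1095 was again the lowest control. The *RSPO1* change was -0.55 (interval -1.11 to 0.01, adjusted p = 0.355) and that of *WNT4* -0.33 (interval -0.78 to 0.12, adjusted p = 0.476). *FOXL2*, a granulosa cell transcription factor, was at most 0.404 FPKM in the littermates and 1.09 FPKM in the controls and was not tested. Of 13 tested genes of the pre-granulosa and ovary list 0 passed by limma, with 1 lower and 1 higher at an unadjusted p under 0.05 and a median of -0.04. *FOXO1*, a forkhead factor of the list, changed by 0.36 (adjusted p = 0.407). Among 14 tested WNT targets and feedback genes 0 passed by limma, with 3 lower and 2 higher at an unadjusted p under 0.05 and a median of -0.12. *SFRP2*, a secreted WNT antagonist, was at 162 ± 7.57 FPKM in the littermates and 109.5 ± 23.4 FPKM in the controls without overlap (change 0.59, adjusted p = 0.0605, 0.0201 over own-name loci). *NKD2*, an intracellular antagonist of the pathway, went the other way in value, at 1.74 ± 0.722 FPKM in the littermates and 6.44 ± 3.87 FPKM in the controls (change -1.32, adjusted p = 0.0974, 0.0235 over own-name loci, held in 7 of 11 fits without a single library). *APCDD1* and *MYC* changed by -0.47 and -0.44 (adjusted p of 0.178 and 0.202).

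*COL18A1* of the basement membrane list fell, and no endothelial or interstitial gene passed over all loci. *COL18A1*, the collagen XVIII chain of cord and vessel basement membranes (chr31:38891336-38959861), had 60.5, 46.1, 33.9, 38.8 and 53.1 FPKM in the littermates, against 109.6, 91.1, 105, 137, 158 and 59.1 FPKM in the controls. It fell 2.37-fold (log2 change -1.19, SE 0.23, adjusted p = 0.0432, exact permutation p = 0.00649), a call lost in 17 of 31 alternatives, and the groups overlapped only where A1095 lay under C3516. *COL18A1* was the 1 called gene of 12 tested in the basement membrane list, beside 0.609% of all loci called lower, and the median of the list was -0.06. *LAMA5* (-0.88, adjusted p = 0.0905), *COL9A3* (-0.91, adjusted p = 0.179) and *LAMC1* (0.35, adjusted p = 0.348) did not pass over all loci. *LAMA5* had an adjusted p of 0.0242 over own-name loci, which held in 5 of 11 fits without a single library. Of 12 tested endothelial genes 0 passed by limma, with 2 lower and 1 higher at an unadjusted p under 0.05. *SOX18* and *SOX17*, transcription factors of vessels, changed by -1.44 (adjusted p = 0.052, 0.00976 over own-name loci) and -0.68 (adjusted p = 0.131, 0.0289 over own-name loci, held in 5 of 11 fits without a single library), while *TEK*, the angiopoietin receptor, changed by 0.25 (adjusted p = 0.297). Of the 14 interstitial and hedgehog genes tested 0 passed by limma, with 2 lower at an unadjusted p under 0.05 and a median of 0.08.

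No germ cell gene passed. Of 6 that reached the tested level 0 passed by limma, with 1 lower at an unadjusted p under 0.05, beside 14.3% of all own-name loci, and a median of -0.55. *DPPA3* was at 2.76 ± 1.36 FPKM in the littermates and 6.77 ± 5.0 FPKM in the controls (change -0.98, adjusted p = 0.30), and *TFAP2C*, a primordial germ cell factor, changed by -0.70 (adjusted p = 0.453). The littermate C3516 had 0.461 FPKM of *DPPA3* and the control A1091 had 16.7 FPKM, and these were the extremes. The germ cell list summed to 32.5 to 37.2 FPKM in the littermates and 32.4 to 60.2 FPKM in the controls.

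In the adrenal cortex, erythroid, liver, macrophage and skeletal muscle lists 0 genes passed over all loci by limma, with 1 lower in the adrenal, 2 higher in the erythroid, 0 in the liver, 1 lower in the macrophage and 1 lower and 1 higher in the muscle list at an unadjusted p under 0.05. Their sums overlapped between the groups, and the part of such cells in the results was not tested. The 6 adrenal cortex markers summed to 13.5 to 36.8 FPKM in the littermates and 33.3 to 138 FPKM in the controls. The list holds *DLK1*, a transmembrane protein that fetal Leydig and adrenal cells also make (chr8:68950127-68970478). *DLK1* made up a large part of the control sums. In XX gonads of d37-39 its means were 0.830 FPKM (XX DSD) and 0.494 FPKM (XX controls), and which XY cells held it was not tested. *DLK1* had 10.9, 27.7, 16.3, 4.69 and 23.0 FPKM in the littermates, against 38, 40.3, 25.1, 68.3, 127 and 61.0 FPKM in the controls. A1100 was the only control below a littermate (change -1.81, SE 0.47, adjusted p = 0.083, 0.0223 over own-name loci). The adrenal receptor of ACTH, *MC2R*, was at 1.33 to 4.75 FPKM in the littermates and 1.88 to 3.10 FPKM in the controls (change 0.38, adjusted p = 0.476), and *TH*, the catecholamine enzyme of the medulla, changed by -0.37 (adjusted p = 0.504). The 11 erythroid markers summed to 164 to 252 FPKM in the littermates and 118 to 174 FPKM in the controls. *AHSP* and *TFRC* of red cell precursors changed by 0.60 and 0.49 (adjusted p of 0.344 and 0.309). The liver list summed to 14.7 to 74.7 FPKM in the littermates and 36.7 to 94.3 FPKM in the controls. In it *APOA1* changed by -0.89 (adjusted p = 0.384), *SERPINA1* by 1.13 (adjusted p = 0.476) and *AFP* by 0.74 (adjusted p = 0.476), with 9.39 FPKM of *AFP* in C3627 and at most 2.34 FPKM in each other embryo. The macrophage list summed to 49.4 to 75.7 FPKM in the littermates and 52.1 to 80.7 FPKM in the controls, and its marker *CD68* changed by -0.73 (adjusted p = 0.289). In the skeletal muscle list *TNNT3* and *ACTA1* changed by -0.72 (adjusted p = 0.0762, 0.0173 over own-name loci) and 0.74 (adjusted p = 0.315).

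Medians of the mitochondrial and ribosomal lists were just under 0. Of 34 mitochondrial ribosomal protein genes tested, 2 passed as lower, beside 1.29% of all loci in either direction. At an unadjusted p under 0.05, 12 of the 34 were lower and 2 higher, beside 14.3% and 12.4% of own-name loci, and the median was -0.12. *MRPL21* fell to 28.8 ± 6.10 FPKM in the littermates, against 46.4 ± 6.12 FPKM in the controls (change -0.68, adjusted p = 0.0398, no overlap), and *MRPL41* to 31.6 ± 8.03 FPKM, against 64.6 ± 15.2 FPKM (change -1.01, adjusted p = 0.0487). *MRPL36* and *MRPL34*, also of the large mitochondrial subunit, changed by -1.04 and -1.13 (adjusted p of 0.064 and 0.0718, 0.0173 and 0.0194 over own-name loci). In the respiratory chain list 1 of 28 passed, *NDUFS7* of complex I (change -0.84, adjusted p = 0.0429, no overlap), with a median of -0.05. *UQCR10* of complex III changed by -0.78 (adjusted p = 0.0953, 0.0265 over own-name loci, which held in 4 of 11 fits without a single library). Of 17 cytoplasmic ribosomal protein genes tested, 1 passed, *RPS23*, at 499.6 ± 106 FPKM in the littermates and 882 ± 129 FPKM in the controls without overlap (change -0.83, adjusted p = 0.0414). *RPS16* and *RPS21* changed by -0.51 and -0.66 (adjusted p of 0.22 and 0.241, 0.045 and 0.0186 over own-name loci), and without single libraries the own-name value of *RPS16* held in 1 of 11 fits and that of *RPS21* in 10. The calls past the adjusted p of *MRPL21*, *MRPL41*, *NDUFS7* and *RPS23* were lost in 16 or 17 of 31 alternatives. Copies of ribosomal protein genes elsewhere in the genome can share their reads. The immediate early genes *IER2*, *IER3* and *JUNB* changed by -0.91, -1.08 and -0.78 (adjusted p of 0.0636, 0.0718 and 0.15, all under 0.05 over own-name loci, though for *JUNB* in 2 of 11 fits without a single library), and 0 of 14 of their list passed over all loci by limma, with 3 lower at an unadjusted p under 0.05. In the proliferation list 0 of 18 passed by limma, with 2 lower and 2 higher at an unadjusted p under 0.05. Its *CDK1*, the mitotic kinase, changed by 0.42 (adjusted p = 0.119) and *TK1*, the thymidine kinase, by -0.55 (adjusted p = 0.129, 0.0453 over own-name loci, which held in 2 of 11 fits without a single library).

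**Figure D2:**
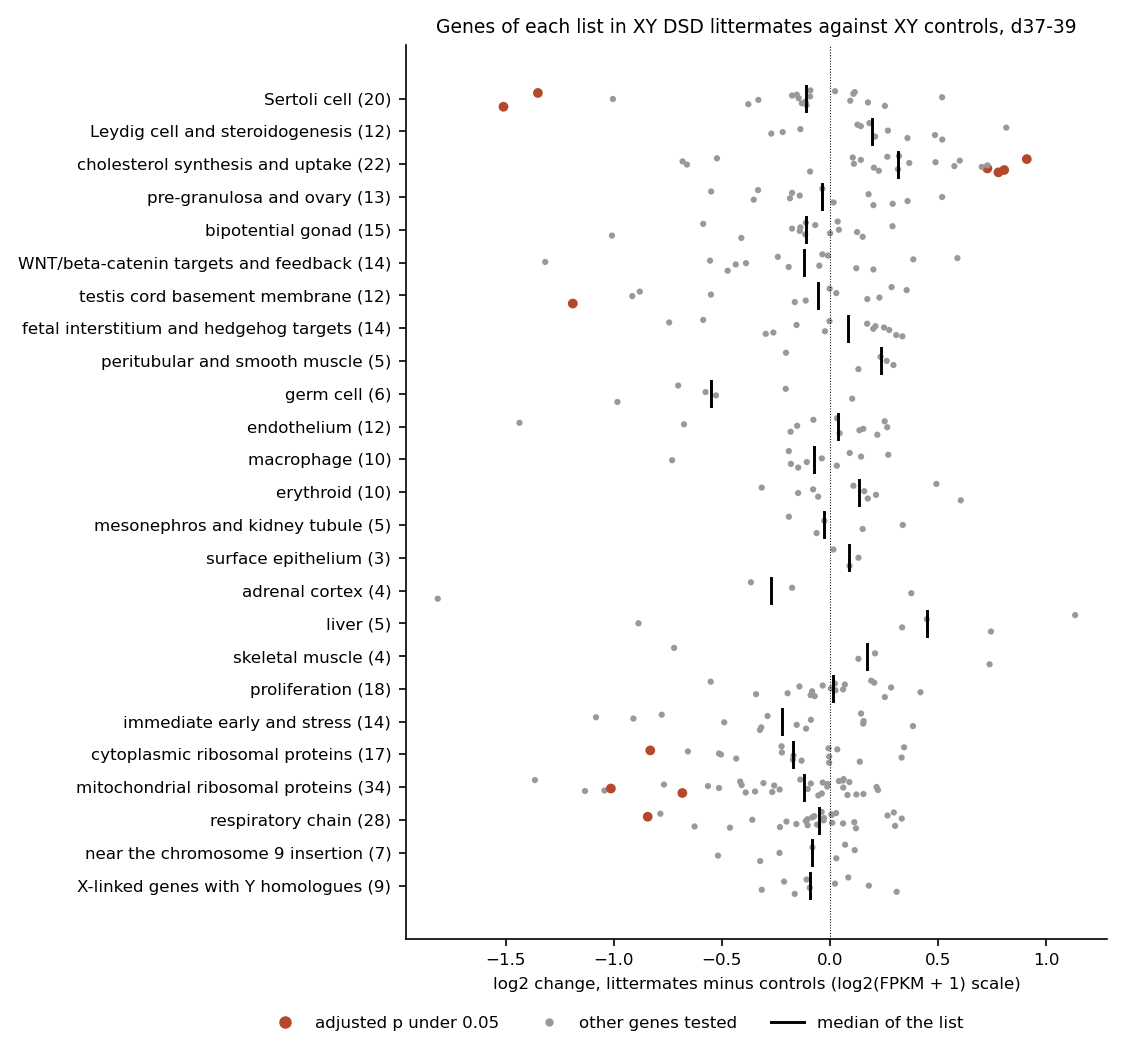
Change of each tested member of the 25 gene lists, on the log2(FPKM + 1) scale, XY littermates over XY controls at d37-39. Each dot is a gene, red where the adjusted p is under 0.05, and the bar is the median of the list. The 4 red cholesterol synthesis genes lie above 0, and the red genes of the other lists lie below it.

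No tested gene around the insertion passed. Of 12 genes of this stretch of chromosome 9 with a value, 7 reached the tested level and 0 passed by limma, with 0 at an unadjusted p under 0.05. *GPRC5C* had the lowest change, -0.52 (interval -1.15 to 0.11), followed by *CDC42EP4* with -0.32 (interval -0.76 to 0.11), *SLC39A11* with -0.23 (interval -0.54 to 0.08) and *SSTR2* with -0.08 (interval -0.48 to 0.32). *TTYH2* changed by 0.07 (interval -0.20 to 0.34) and *COG1* by 0.03 (interval -0.13 to 0.19). The remaining tested member was *SOX9* (change 0.11), further along the chromosome. *BTBD17*, whose intron holds the insertion, and the nearby *KIF19* were not among the 7. The paper puts both far under 1 FPKM in all groups, so their change could not be tested. The list summed to 125 to 148 FPKM in the littermates and 128 to 141 FPKM in the controls, and *SOX9*, at the levels given above, made up a large part of these sums.

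*TNFRSF1B* encodes the type 2 receptor of tumor necrosis factor and lies at chr2:84136033-84159081 on the minus strand. It had 29.8, 44.6, 33.3, 28.4 and 33.8 FPKM in the littermates, against 5.23, 4.46, 6.83, 7.57, 6.78 and 3.43 FPKM in the controls. The lowest littermate was well above the highest control, and C3516 was with its group. *TNFRSF1B* rose 5.94-fold, with means of 34 ± 6.36 and 5.72 ± 1.6 FPKM (SD, n = 5 and 6) and a log2 change of 2.40 (SE 0.18, interval 1.99 to 2.81, adjusted p = 0.000114, exact permutation p = 0.00216). Its adjusted p stayed under 0.05 in 29 of 31 alternatives and passed that limit with 1 value per litter and with division by the summed FPKM (0.131 at most).

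Other groups place this level. The 4 XY littermates of d35, from 2 further litters, had 87.2, 46.7, 62.4 and 26.6 FPKM of *TNFRSF1B*, and the 3 XY littermates of d41-44 had 20.2, 12.4 and 13.8 FPKM, against 6.11 to 8.05 FPKM in the 3 XY controls of d41-44. Every XY littermate of the 3 ages was above every XY control of d37-39 and d41-44. These groups mix insertion genotypes. By the genotypes of the study, C3617 (26.6 FPKM at d35) and C3518 and C3522 (12.4 and 13.8 FPKM at d42) were heterozygous. So were C3632 and C3633 of the XX DSD embryos of d37-39. The part of genotype in the levels by age was not tested. In XX embryos of d37-39 it was at 4.02 to 8.68 FPKM in the 8 XX DSD embryos and 5.74 to 8.09 FPKM in the 6 XX controls, a change of -0.01. The XY change exceeded the XX change by 2.41 (SE 0.23, adjusted p = 5.69e-06 over 38909 loci). The XY change of d37-39 exceeded that of d41-44 by 1.44 (adjusted p = 0.386). At d41-44 the XY littermates were at d41 and d42 and the XY controls at d44, so that pedigree and day cannot be told apart there.

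**Figure D3:**
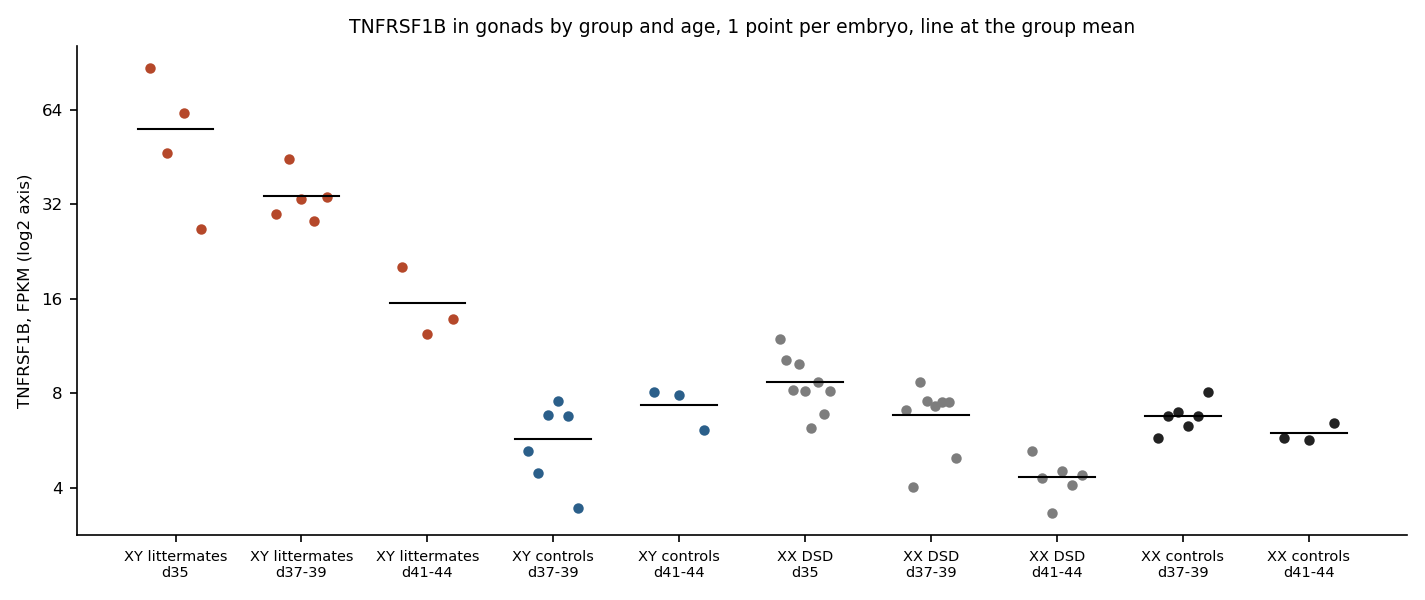
*TNFRSF1B* in each embryo of 10 groups, in FPKM on a log2 axis, with a bar at each group mean. The XY littermates of d35, d37-39 and d41-44 (means of 55.7, 34 and 15.5 FPKM) lie above the XY controls, XX DSD embryos and XX controls, whose embryos all lie at or under 11.9 FPKM.

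The neighbours of *TNFRSF1B* did not rise with it. *VPS13D*, a lipid transfer protein gene whose locus ends at 84135894 next to it on the same strand, had 14.4, 11.3, 10.9, 11 and 12.3 FPKM in the littermates, against 17.9, 19, 19.7, 18.3, 19.8 and 20.4 FPKM in the controls. It was singled out after its values were seen. *VPS13D* fell without overlap (change -0.64, SE 0.08, adjusted p = 0.0103, exact permutation p = 0.00216), and its change in XX embryos was -0.67. The libraries do not mark strand, and adjoining or overlapping genes can share reads. Of the other named loci within 0.3 Mb, *DHRS3*, *MIIP*, *MFN2* and *PLOD1* changed by -0.46, -0.88, -0.08 and -0.66, and none of them passed.

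*GALNT13*, which encodes an enzyme that starts mucin-type O-glycans (chr36:616241-1157226), was the other called higher locus with a symbol of its own. It had 18.1, 7.94, 13.7, 22.7 and 6.61 FPKM in the littermates, against 2.44, 4.86, 6.17, 4.23, 2.38 and 3.62 FPKM in the controls. The groups did not overlap, but the littermates spread over a wide range. The rise was 3.50-fold (log2 change 1.5, SE 0.32, adjusted p = 0.0481) and was lost in 20 of 31 alternatives.

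Named genes that fell without overlap included *LRP3*, *C1orf115* and *APOE*. *LRP3*, a member of the LDL receptor family (chr1:118922997-118937282), had 9.25, 6.04, 4.12, 3.64 and 5.80 FPKM in the littermates, against 22.4, 22.5, 19.4, 22.3, 29.3 and 13.2 FPKM in the controls. It fell 3.73-fold (log2 change -1.76, SE 0.23, adjusted p = 0.0103, exact permutation p = 0.00216) and lost its call in 3 of 31 alternatives. *C1orf115* (chr38:15374894-15378988) had 221, 58.1, 113, 83.1 and 56.5 FPKM in the littermates, against 390.2, 442, 449, 323, 450.0 and 225 FPKM in the controls. C3516 was the highest littermate and A1095 the lowest control at both genes. *C1orf115* fell 3.57-fold (log2 change -1.98, SE 0.33, adjusted p = 0.036). *APOE*, the apolipoprotein that carries cholesterol between cells (chr1:110525579-110528624), fell 2.88-fold, with 313, 179, 185, 266 and 322 FPKM in the littermates, against 514, 462, 517, 983, 1297 and 605 FPKM in the controls (adjusted p = 0.0432, singled out after its values were seen). The calls of *C1orf115* and *APOE* were each lost in 17 of 31 alternatives, litter as a random effect included.

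Other named genes fell as well. *NME3*, a nucleoside diphosphate kinase, had 0.452 and 0.134 FPKM in C3516 and C3626 and was listed at 0 in the other 3 littermates, against 1.47 to 7.14 FPKM in the controls (change -2.10, adjusted p = 0.0268). *CCDC85B*, a coiled-coil protein, fell 4.49-fold (adjusted p = 0.0232), *C4orf48*, a small secreted protein, 4.49-fold (adjusted p = 0.0262), *TPGS1*, a subunit of the tubulin polyglutamylase, 4.36-fold (adjusted p = 0.0268), *VENTX*, a homeobox factor, 3.89-fold (adjusted p = 0.0422) and *CLDN3*, a tight junction claudin, 3.66-fold (adjusted p = 0.0377). *ELA2*, an elastase gene, fell to 1.67 ± 0.531 FPKM in the littermates, against 10.7 ± 6.78 FPKM in the controls (adjusted p = 0.0413). The small nucleolar RNA loci *SNORD10* and *SNORA24* fell to means of 2.34 and 6.97 FPKM in the littermates, against 32.2 and 34.1 FPKM in the controls (adjusted p of 0.0432 and 0.0271). Such loci lie inside other genes, and reads of their hosts cannot be told apart from their own. The locus named *DNAJB6*, a co-chaperone, on chromosome 4 fell to 0.853 ± 0.899 FPKM, against 4.02 ± 0.896 FPKM (adjusted p = 0.0432), and whether it is a copy of a gene elsewhere was not tested. Each of the genes from *NME3* to *DNAJB6* lost its call in 13 to 18 of the alternatives run, litter as a random effect included.

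**Figure D4:**
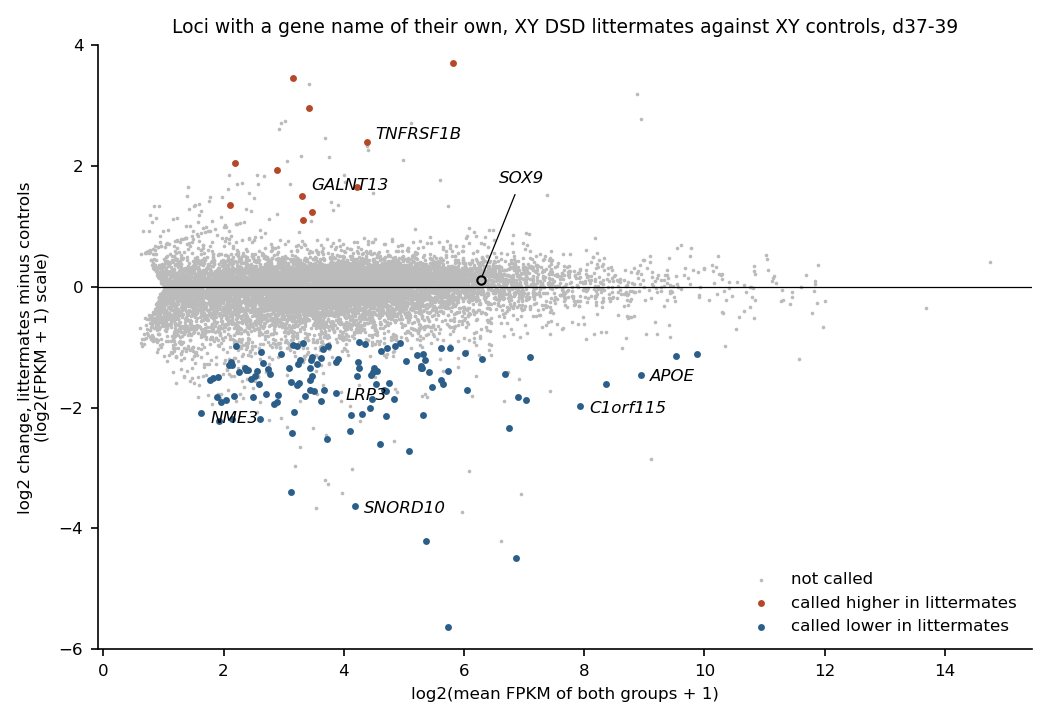
Change of each tested locus with a gene name of its own against its mean level, both on the log2(FPKM + 1) scale, XY littermates over XY controls at d37-39. Called loci are coloured and 8 genes are named. *TNFRSF1B* at 2.40 lies apart above the cloud, and the named lower genes run from -1.45 (*APOE*) to -3.64 (*SNORD10*), with *SOX9* near 0.

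Gene groups defined in other embryos show where the difference lay on the axes of sex and age. Of 784 tested genes that were higher in XY than XX controls at d44, 37 were called lower (4.72%) and 5 higher (0.638%) in the littermates, with a median of 0.02. Over all annotated genes tested these values were 2.81%, 0.273% and 0.01. That background starts from 1 FPKM, whereas each gene group was formed from calls at 4 FPKM or more, so that the shares are not on a like base. Of 573 tested genes that were higher in XX controls at d44, 28 were called lower (4.89%) and 0 higher, with a median of -0.11. Testis-type and ovary-type genes thus had like shares of lower calls, and the difference of the shares was not tested. Of 846 tested genes that were higher at d41-44 than at d35 in XY littermates, 29 were called lower (3.43%) and 6 higher (0.709%), with a median of 0.09. Of 931 tested genes that were lower at the later age, 103 were called lower (11.1%) and 18 higher (1.93%), with a median of -0.20. The median of this last group in single libraries, relative to the control mean, ran from -0.34 to -0.02 in the littermates and from -0.38 to 0.12 in the controls, so that the ranges of the groups overlapped.

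Most lower genes of the littermates had the same direction in the other comparisons of the 2 pedigrees. Those comparisons use other libraries. The XX comparison shares its litters with this one, whereas the XY comparison of d41-44 shares none. By their labels, the XY littermates of d41-44 were at d41 (1 embryo) and d42 (2), and all 3 XY controls at d44. Pedigree and gestational day therefore cannot be told apart in the XY comparison of d41-44. In XX DSD embryos against XX controls at d37-39 the 382 lower genes with a value had a median change of -1.02, beside -1.33 in the XY littermates. The sign matched for 417 of 420 called genes (99.3%) and for 83.5% of all genes with both values. In XY littermates against XY controls of d41-44, 389 lower genes had a median change of -0.80, and the sign matched for 385 of 424 called genes (90.8%), beside 72.5% of all genes. *AMH*, which XX gonads of d37-39 held at no more than 17.3 FPKM, had changes of -1.24 and -1.12 there, *LRP3* -1.47 and -1.34, *GADD45G* -1.30 and -1.47, and *COL18A1* -0.88 and -1.05. The XY change differed from the XX change at 2 of 38909 loci (0.00514%, 1007 at an unadjusted p under 0.05 by limma), of which only *TNFRSF1B* had a symbol of its own. Among the named loci with the next lowest adjusted p were *PNLIPRP2* (difference -1.84, adjusted p = 0.119), a pancreatic lipase relative, and *FRZB*, *DLK1*, *ELOVL2*, *CNTNAP4* and *KCNE1L* among the negative ones (-0.68, -2.10, -0.96, -0.67 and -1.36) and *MAGI2*, *GFRA2* and *SORBS2* among the positive ones (0.95, 1.08 and 0.48), none of which passed. Without C3516 the number was 7.

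The XY change at d37-39 differed from that at d41-44 at 7 of 33630 loci (0.0208%, 2898 at an unadjusted p under 0.05 by limma). Without C3516 the number was 210. The XY littermates and XY controls of d41-44 share no gestational day, so that pedigree and day cannot be told apart in these differences. None of the 7 had a symbol of its own. The named genes with the lowest adjusted p were *MRPL4*, *CDK2AP1*, *RCL1*, *MRPL21* and *SHISA2*, whose changes at d37-39 lay above those at d41-44 by 0.80, 1.29, 0.86, 1.41 and 1.19 (adjusted p of 0.162 to 0.362).

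Some loci without a gene name of their own changed by more than *TNFRSF1B*. The pair given here had the lowest adjusted p in each direction among such called loci without overlap of the groups, and was chosen after values were seen. Whether these loci carry shared names or overlap annotated genes was not tested. XLOC_041124, a locus of 3578 exonic bases (chr37:107223-138899), had 15.7, 28.9, 27.0, 24.4 and 30.3 FPKM in the littermates, against 0.517, 0.619, 0.786, 1.21, 0.482 and 0.945 FPKM in the controls. It rose 33.2-fold (log2 change 3.88, SE 0.19, adjusted p = 1.76e-06). The same locus was at 4.93 to 25.9 FPKM in the 8 XX DSD embryos and 0.290 to 1.47 FPKM in the 6 XX controls of d37-39, and at 9.78 to 19.8 FPKM in the XY littermates and 0.355 to 0.616 FPKM in the XY controls of d41-44, so that the littermate or XX DSD range lay above the control range in each of these comparisons. XLOC_011206, of 96 exonic bases (chr14:44770673-44770768), was listed at 0 in all 5 littermates, against 119, 95.1, 131, 177, 142 and 248 FPKM in the controls (adjusted p = 1.63e-08). It was listed at 0 in the 8 XX DSD embryos too, and at 99.3 to 249 FPKM in the 6 XX controls. At d41-44 it was at 0 to 179 FPKM in the XY littermates and 131 to 349 FPKM in the XY controls, which overlapped. What either locus encodes is not given in the files used here.

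The values of short unnamed loci varied by library. Unnamed loci made up 8.26%, 28%, 60.8%, 71.1% and 63.8% of the summed FPKM in the littermates, against 11.6%, 66%, 8.88%, 11.3%, 10.7% and 10.7% in the controls, so that C3516 and C3626 were low among the littermates and A1099 was high among the controls. Unnamed loci of up to 100 exonic bases had a median change of 1.39 (8240 loci), those of 101 to 200 bases 0.93 (6457) and those of 201 to 500 bases 0.50 (2494), whereas unnamed loci of over 1000 bases stood at -0.05 and named ones at 0.00 (12025). The changes of named loci also varied with their surroundings. Loci with up to 10 genes within 0.5 Mb had a median of 0.11 and 0.674% of them called lower, and loci with over 50 such genes had a median of -0.31 and 2.25% called lower (Spearman rho -0.34 across 13087 loci, which are not independent). Chromosome 20 held the most lower named loci by count, 13 of 622 (2.09%), with a median of -0.21, beside 133 of 13087 named loci in all. By share, chromosome 38 (3 of 119, 2.52%) and chromosome 3 (8 of 372, 2.15%) were higher. The part of this trend in the counts of lower genes was not tested, beyond a fit with the trend removed that called 243 lower and 41 higher loci.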

How the data were processed

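Gonad pairs of dog embryos were dissected and frozen, and poly(A)+ libraries were made by the TruSeq v2 procedure, which does not mark strand. FPKM values (fragments scaled by transcript length and by library size) were deposited by the authors for 24581 annotated genes and for 58781 loci of an assembly guided by the annotation, both for the same 55 libraries. Per the submitters' processing notes, reads were trimmed with cutadapt 1.5, aligned to canFam3 with TopHat2 2.0.13 and quantified with Cufflinks 2.2.1, Cuffnorm and Cuffdiff. FPKM keep no read counts, so values near 0 are less precise in shallow libraries, and fold changes on the log2(FPKM + 1) scale understate those of low genes. An FPKM of 0 can be a failed estimate.

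Genes reaching a mean of 1 FPKM in the littermates or the controls were tested on log2(FPKM + 1) with limma 3.58.1 in R 4.3.3 (lmFit, eBayes with trend, two-sided, Benjamini-Hochberg over all features of a table). A call needed an adjusted p under 0.05, group means at least 2-fold apart and 4 FPKM or more in the higher group. The 5 littermates and 6 controls were grouped by their labels. Single genes were also tested by exact permutation over all 462 assignments. Differences of changes were contrasts over 4 groups. No test was run over a list of genes. Of the annotated identifiers, 20 were paired with symbols. Gene names of the discovery table come from its transcript annotation. A locus with a single gene name that no other locus carries counts as an own-name locus. *DHH*, *INSL3* and *HSD3B2* had no locus of their own and were not analysed here. Columns of per-sample values left unused numbered 0.

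Named genes were a set of core gonad genes, up to 12 called genes in each direction with the largest ratio, a symbol and no overlap, from each list the 4 genes or fewer of lowest adjusted p, the genes near the insertion, and up to 6 genes in each direction with the lowest adjusted p in each test of a difference. A few genes that meet this rule are not reported here. Other names were added after their values were seen and are marked so in the text or among the other observations. The members and the lists were chosen with earlier results of these data known. Alternatives covered the pseudocount, the filter, the scaling, the moderation, litter, day, the table, gene density (in place of base composition, which needs a genome) and each library left out. In simulated data of the annotated table (13825 genes), the adjusted p alone recovered 58.2%, 85.1% and 95.5% of changes of 1.5, 2 and 3-fold. In the discovery table (28431 loci) it recovered 22.4%, 73.1% and 90.9%. Embryos were drawn independently there, with no effect of litter or library, and the changed genes had control means well above 4 FPKM. These shares therefore do not give the recovery of calls in the real embryos.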

Additional observations from a re-analysis of the deposited data

Results flagged for a closer look

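*TNFRSF1B* had a larger change in XY than in XX embryos of d37-39, by 2.41 on the log2(FPKM + 1) scale (SE 0.23, adjusted p = 5.69e-06, limma contrast over 4 groups). All 5 XY littermates lay above all 6 XY controls, whereas XX DSD embryos and XX controls overlapped.

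In 222 sets of values, each gene followed singly in each of the 2 groups, a single embryo lay far from the rest of its group 21 times, and chance gives about 1 in 20. Among the XY littermates C3516 was high at *C4orf48* (4.18 FPKM, others 0.977 to 1.90), *TPGS1* (14.2, others 2.22 to 5.20), *SOX18* (3.40, others 0.340 to 0.989) and *MRPL21* (39.6, others 24.5 to 27.1), in each case toward the controls. C3626 was high at *MYC* (22.6 FPKM, others 13.4 to 15.3) and *H19* (688, others 392 to 445), C3627 at *AFP* (9.39, others 0.0332 to 2.34) and C3638 at *PNLIPRP2* (2.51, others 0.0613 to 0.641).

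Among the XY controls A1095 was low at *NR5A1* (59.9 FPKM, others 93.8 to 99.9) and *TCF3* (16.6, others 30.1 to 35.9) and high at *SOX9* (92.8, others 66.2 to 73.7), *KITLG* (58.4, others 26.4 to 35.9) and *CNTNAP4* (6.32, others 4.77 to 4.99). A1091 was low at *DMRT1* (16.9 FPKM, others 20.3 to 22) and high at *DPPA3* (16.7, others 3.35 to 5.85) and *TFAP2C* (6.16, others 1.14 to 2.50). A1099 was high at *SNORA24* (75.2 FPKM, others 16.6 to 35.1) and *MRPL21* (58.4, others 41.6 to 46.8). A1094 was high at *VENTX* (15.4 FPKM, others 4.85 to 7.83), *KCNE1L* (244.9, others 70.1 to 120.4) and *ID3* (133, others 64.1 to 89.9).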

How the results depend on the processing

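The annotated table was the steadier of the 2. Its 391 lower and 38 higher calls became 250 lower when a call needed 10 FPKM, 218 lower with d39 embryos alone, 19 and 8 with 1 value per litter, 660 and 81 without both C3516 and A1095, and 696 and 84 without those and A1100. Leaving out single libraries gave 248 to 571 lower and 25 to 66 higher. In the discovery table the 197 lower and 55 higher calls became 319 and 95 with a pseudocount of 0.1, 24 and 14 with 4, 32 and 13 without a filter, 84 higher with a filter at 4 FPKM, 16 and 9 with division by the summed FPKM, 19 and 11 without trend, 18 and 11 with a random litter effect, 3 and 2 with 1 value per litter, 27 and 13 with day as a covariate, 61 lower with d39 embryos alone, 557 and 170 without both C3516 and A1095, 516 and 138 without those and A1100, and 349 and 91 over loci of more than 200 exonic bases. Single libraries left out gave 14 to 493 lower and 11 to 140 higher, and over own-name loci 171 to 399 and 27 to 58. The median of genes higher in XX controls at d44 was -0.11, and -0.069 with a pseudocount of 4, -0.16 with the littermate C3691 added, and -0.17 to -0.083 over single libraries left out. The median of genes higher in XY controls was 0.02, -0.036 with d39 embryos alone, and -0.0031 to 0.05 over single libraries left out. Medians of the age groups ranged over 0.05 to 0.13 and -0.29 to -0.16. The XY and XX changes differed at 2 loci, 1 with a pseudocount of 0.1 and 2 to 7 over single libraries left out. The changes of the 2 ages differed at 7 loci, 4 with litter as a block and 5 to 210 over single libraries left out. The fits without 2 or 3 libraries, over longer loci and over own-name loci without single libraries were chosen after seeing the data. The causes were not tested. No named gene changed sign past a threshold. No paired analysis was possible because the replicate numbers were given in accession order only and litters are nested in the groups.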

Other observations

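Transcripts of imprinted genes did not move alike, and the genes given here were chosen after values were seen. *H19*, a noncoding RNA made from the maternal allele in mouse and human (chr18:46204857-46208121), had 392, 688, 409, 392 and 445 FPKM in the littermates, against 944, 949.9, 915, 1195, 1231 and 838 FPKM in the controls. It fell 2.18-fold with no overlap (log2 change -1.14, SE 0.17, adjusted p = 0.0222 by limma, lost in 11 of 31 alternatives). *IGF2*, its neighbour, expressed from the paternal allele in mouse and human, was at 136 ± 29.8 FPKM in the littermates and 147 ± 38.7 FPKM in the controls, with an interval of the change from -0.52 to 0.32. *MEG3_2*, a locus named for the noncoding RNA beside *DLK1* on chromosome 8, fell 3.55-fold (11 ± 5.34 FPKM in the littermates and 39.1 ± 19.7 FPKM in the controls, adjusted p = 0.0484, lost in 17 of 31 alternatives, no overlap). *PEG3*, *PEG10* and *GRB10* changed by 0.12, 0.05 and -0.04 (adjusted p of 0.476 to 0.787), and the first and the second of these turn negative with division by the summed FPKM.

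*ID3*, an inhibitor of E proteins and target of BMP signalling, had 52.6, 56.8, 31.9, 30.8 and 30.5 FPKM in the littermates, against 67.1, 81.9, 89.9, 84.2, 133 and 64.1 FPKM in the controls. It fell 2.14-fold without overlap (log2 change -1.09, SE 0.22, adjusted p = 0.0455, lost in 17 of 31 alternatives, chosen after its values were seen).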
